A study of Mus musculus with 16 samples.

Results

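Shared bidirectional promoters were 805 of the 362076 accessible regions obtained when the overlapping ATAC-seq peaks of 16 mouse islet samples were merged. They were chosen by measured peak calls and by annotation. Each had a peak in all 16 samples, was narrower than 5 kb, lay on chromosomes 1 to 19, and held start sites of 2 protein-coding genes on opposite strands, head to head and at most 1000 bases apart. Of the 40940 regions on those chromosomes with a peak in every sample, 8688 others narrower than 5 kb held the start sites of exactly 1 protein-coding gene (single-gene promoters) and 30172 held none. These served for comparison.

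Accessible chromatin was mapped by ATAC-seq, which sequences the sites that a transposase can reach, in pancreatic islets of the 8 founder strains of the Diversity Outbred mice. The classical inbred strains were 129S1_SvImJ (129), A_J (AJ), C57BL/6J (B6), NOD_ShiLtJ (NOD) and NZO_HlLtJ (NZO), and the wild-derived strains CAST_EiJ (CAST), PWK_PhJ (PWK) and WSB_EiJ (WSB). For every strain there was 1 sample of each sex, so a strain is represented by 2 samples that also differ in sex. The age of the mice, and whether a sample pooled several mice, are not given in the labels. The strain and sex p-values below rest on how unevenly the female-male difference ran across strains, since no strain had a second sample of either sex. Those for wild-derived against classical strains rest on the spread between strains within a class, of their means or of their female-male differences. None separates out the spread between mice of the same strain and sex. The values are a signal per peak that is not scaled to read depth, and read totals were not used here. Every sample had a peak within 500 bases of a start site of 10 of 12 islet endocrine genes, Ins1, Ins2 and Gcg included, and none at Sst or Ppy. From 0 to 3 of 10 exocrine acinar genes, 1 to 5 of 8 duct and vessel genes and 0 to 2 of 10 leukocyte genes had one, with the highest count of each of these 3 lists in the NZO male. The genes of a marker list were summed on the scaled signal defined below. The duct and vessel sum was 2.98 in the 129 female and 2.85 in the NZO male, against 0.453 to 0.764 in the other 14 samples. It rested on 3 of 8 genes in the 129 female and 5 of 8 in the NZO male. The islet endocrine sum was 23.2 in the 129 female and 16.6 in the NZO male, in a range of 15.9 to 24.5 over all samples. The acinar sum was 0 to 0.613 and the leukocyte sum 0 to 0.119 outside the NZO male, which had 1.29 and 0.691.

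In a head-to-head pair, 2 genes are transcribed away from each other from a short stretch of DNA that serves both as a promoter. Such stretches are typically CpG islands without a TATA box, and the pairs are known for housekeeping functions such as DNA repair, mitochondrial biogenesis, protein folding and RNA processing. ETS family factors, NRF1 and YY1 are among the activators known to act at CpG island promoters.

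The paired start sites lay a median of 118 bases apart, with quartiles of 67 and 234 bases. In 343 members the distance was at most 100 bases, in 322 it was over 100 and up to 300 bases, and in 140 it was longer. The closest pairs named 1608 different genes. In 21 members more than 1 pair met the rule, and the closest was then used. The members were 530 to 4975 bases wide, with a median of 2007 bases against 1862 bases for single-gene promoters and 940 bases for regions with no protein-coding start site. Near the limits of the rule, Asphd1/Sez6l2 (981 bases apart) and Btf3l4/Txndc12 (987 bases) were inside, while 1700013F07Rik/5330417C22Rik and Ddias/Prcp, both at 1005 bases, were outside. Atp5c1/Kin (4943 bases wide) and Mdh1/Wdpcp (4975 bases) were inside the limit on width, and Hnrnph3/Pbld2 (5084 bases) and Ggps1/Arid4b (5120 bases) outside. The demand for a peak in all 16 samples cost 35 further pairs that had one in 15 samples, among them Psma7/Ss18l1 and Timm23/Parg. In 32 of these the missing sample was the AJ male, whose list was the shortest with 80392 peaks on chromosomes 1 to 19 and X.

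The DNA between paired start sites carries the sequence that both genes share. Of the 789 members with at least 12 bases there, 480 had an interval free of annotated exons, with a median GC content of 62.9% and 7.76 CpG dinucleotides per 100 bases. Intervals are shown for pairs that differ in how much their signal varied between strains. Each is the plus strand of GRCm38 (mm10), read 5′ to 3′ from the base after the start of the minus-strand gene, named first, to the base before that of the plus-strand gene. Capitals mark exact matches, on either strand, to motif letters. These were CCGGAAGT for ETS family factors, GCATGCGC for NRF1, AAGATGGC for YY1, the CCAAT box by its own letters, GGGCGG for the GC box, TGACGTCA for the cyclic AMP response element, TATAAA for the TATA box, CACGTG for the E box, ACTACAATT for ZNF143, CTCGCGAG for the CGCG element, and TGTTTAC for FOX family factors. No motif of this list holds another. Among pairs known from textbooks, Toe1/Mutyh (chr4:116807641-116807722) includes the repair glycosylase Mutyh and Hadha/Hadhb (chr5:30155163-30155247) encodes both subunits of the mitochondrial trifunctional protein.
Toe1/Mutyh: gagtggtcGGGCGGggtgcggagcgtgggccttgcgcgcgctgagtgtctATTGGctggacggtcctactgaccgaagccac
Hadha/Hadhb: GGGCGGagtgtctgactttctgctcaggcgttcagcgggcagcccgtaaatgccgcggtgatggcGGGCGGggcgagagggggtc

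The next 2 intervals belong to members whose signal varied little between strains, Mbd4/Ift122 (chr6:115853372-115853469), with the repair glycosylase Mbd4, and Cebpz/Ndufaf7 (chr17:78937067-78937135), with an assembly factor of respiratory complex I.
Mbd4/Ift122: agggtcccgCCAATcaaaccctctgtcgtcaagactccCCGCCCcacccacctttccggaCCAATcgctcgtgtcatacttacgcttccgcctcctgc
Cebpz/Ndufaf7: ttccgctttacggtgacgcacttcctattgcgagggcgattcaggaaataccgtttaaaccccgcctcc

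The last 5 belong to members called for strain below, namely Atp5h/Kctd2 (chr11:115419963-115420127), Ppp1r3d/Fam217b (chr2:178414473-178414523), Zfp91/Lpxn (chr19:12796127-12796192), H2-T22/Gm6034 (chr17:36042748-36042960) and Ifit1bl2/Ifit1 (chr19:34640744-34640870).
Atp5h/Kctd2: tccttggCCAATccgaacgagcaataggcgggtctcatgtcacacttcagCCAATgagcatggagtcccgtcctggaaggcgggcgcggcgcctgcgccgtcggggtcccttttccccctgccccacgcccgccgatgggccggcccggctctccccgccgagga
Ppp1r3d/Fam217b: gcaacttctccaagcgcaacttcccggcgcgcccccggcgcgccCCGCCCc
Zfp91/Lpxn: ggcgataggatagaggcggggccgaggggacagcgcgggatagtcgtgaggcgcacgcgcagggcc
H2-T22/Gm6034: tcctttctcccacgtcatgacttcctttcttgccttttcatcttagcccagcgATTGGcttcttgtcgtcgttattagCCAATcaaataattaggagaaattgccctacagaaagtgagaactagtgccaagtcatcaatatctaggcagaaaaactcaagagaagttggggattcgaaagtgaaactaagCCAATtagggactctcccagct
Ifit1bl2/Ifit1: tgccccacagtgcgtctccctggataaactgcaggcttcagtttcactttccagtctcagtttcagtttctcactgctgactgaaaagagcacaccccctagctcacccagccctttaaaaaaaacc
The first 3 of these held 18, 8 and 9 CpG dinucleotides, with a GC content of 69.7%, 78.4% and 72.7%. The immune gene pairs stood apart from them, with 5 CpG dinucleotides and 42.7% GC at H2-T22/Gm6034 and 1 CpG dinucleotide and 49.6% GC at Ifit1bl2/Ifit1.

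Around the summit the members had the composition of CpG islands. In the 300 bases centred on the median summit position over the samples, the median GC content was 63.0% in members, 63.3% in single-gene promoters and 46.3% in regions with no protein-coding start site. The ratio of observed to expected CpG was 0.841, 0.779 and 0.231 in the same order. It exceeded 0.6 in 91.6% of members and in 74.3% of single-gene promoters. ETS family matches were found in 112 of 805 members (13.9%, exact 95% binomial interval 11.6% to 16.5%), against 7.34% of single-gene promoters and 2.3% of all 39895 shared regions of that width. The CCAAT box was found in 47.7% of members and 38.2% of single-gene promoters, and YY1 in 7.33% and 4.30%. NRF1 was found at similar shares of 5.59% and 5.02%. The TATA box was rare in both, at 2.98% and 3.91%, against 12.5% of all shared regions. The FOX family motif, bound by islet factors such as Foxa2, was also rare in both. It was found in 1.49% of members and 2.82% of single-gene promoters, against 8.19% of all shared regions. Since motif matches depend on base composition, the shares were also taken within tertiles of GC content. The ETS share in members was then 12.8%, 16.1% and 12.8% from the lowest to the highest tertile, against 7.19%, 9.49% and 6.00% in single-gene promoters.

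**Figure D1:**
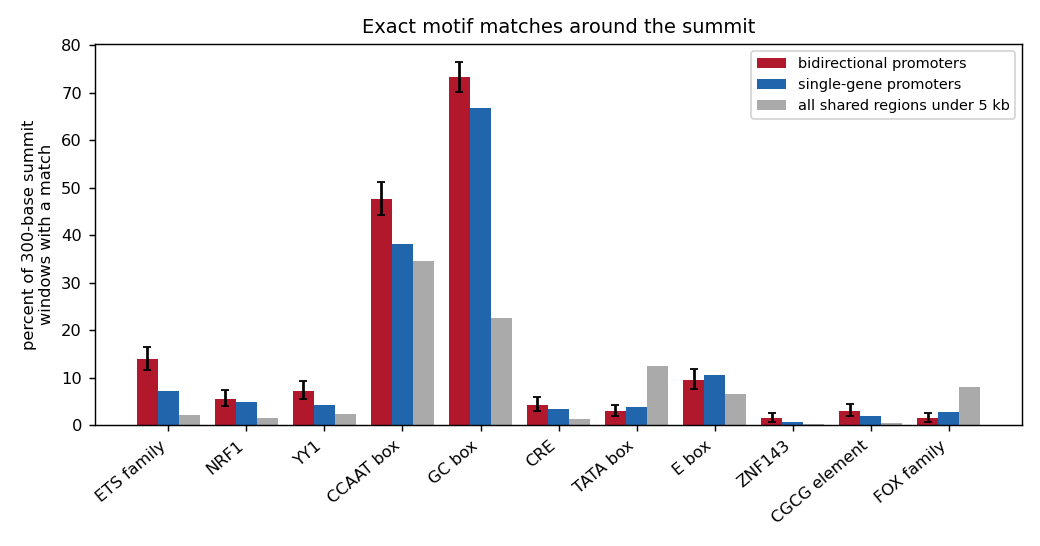
Percent of 300-base windows around the median summit that hold an exact match to each motif on either strand, in 805 bidirectional promoters (red, with exact 95% binomial intervals), 8688 single-gene promoters (blue) and all 39895 shared regions under 5 kb (grey). CRE is the cyclic AMP response element. ETS family matches stood at 13.9%, 7.34% and 2.3% in the 3 sets, and the order was the opposite for the TATA box (2.98%, 3.91% and 12.5%).

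Motif content also differed with the distance between the start sites. ETS matches were found in 20.4% of the 343 members with at most 100 bases, in 10.6% of the 322 with over 100 and up to 300 bases and in 5.71% of the 140 with more. The CCAAT box went the other way, at 36.2%, 55.0% and 59.3%. Members with a CCAAT box had a median of 3.15 in scaled signal (defined below) against 2.05 in those without it, and members with an ETS match had 2.01 against 2.66. The median signal itself was 2.17, 2.82 and 2.95 from the shortest to the longest distance. Levels with and without a motif were not compared at equal distance or GC content. The motif shares and levels are descriptions based on sequence in 1 reference genome, and a match is not a measured binding site.

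The summit of accessibility lay between the paired start sites in about as many members as it lay outside. Per sample, 46.3% to 53.7% of members had it between them (median 48.5%), lowest in the CAST male and highest in the 129 female. In 238 members it was between them in all 16 samples, in 239 in none. By the median position over samples, 414 members had it between the start sites, 191 beyond the plus-strand start and 200 beyond the minus-strand start. Strands are named by the reference genome, so these counts cannot show whether either gene of a pair was favoured. The share between them was 30.0% at distances of at most 100 bases, 66.5% at over 100 and up to 300 bases and 69.3% above that. A longer interval has more room for a summit, so these shares are a description only. Of the 391 outside, 242 lay within 150 bases of a start site. The summit lay a median of 65.0 bases from the midpoint of the pair, whereas in single-gene promoters it lay a median of 83.0 bases from the outermost upstream start site of the gene. Its position ranged over a median of 81.0 bases between the 16 samples in members and 88.0 bases in single-gene promoters. When the outermost start sites within 1000 bases of each other replaced the closest pair, the median share between them rose to 72.9%, and with the centre of the peak in place of its summit it was 29.9%.

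**Figure D2:**
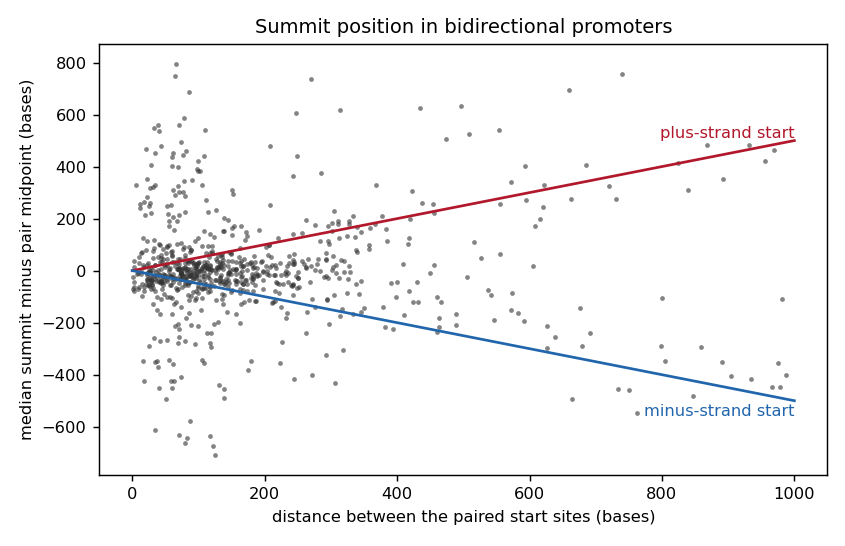
Median summit position over the 16 samples relative to the midpoint of the pair (y axis, bases, positive toward the plus-strand gene) against the distance between the paired start sites (x axis, bases). Each point is 1 of 783 members, the other 22 lie more than 800 bases from the midpoint and are not drawn, and the lines give the position of each start site. At distances above 100 bases most points fall between the lines (214 of 322 and 97 of 140 members). At shorter distances, where the lines lie close together, they scatter to both sides.

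Of 21 head-to-head pairs listed from general knowledge, 15 were members. The summit stayed between the start sites in all 16 samples in 5 of them, which were Atm/Npat, Mcm4/Prkdc, Mrps12/Sars2, Toe1/Mutyh and Pdcd10/Serpini1. In 7 of them it was outside in every sample. At Hspd1/Hspe1 (chr1:55085671-55090006), which encodes the mitochondrial chaperonin and its cofactor, the median summit was 151.5 bases from the midpoint on the Hspe1 side, with start sites 108 bases apart. At Brca1/Nbr1 (chr11:101551605-101553799) it was 736 bases away on the Nbr1 side, with start sites 270 bases apart. Among the 6 pairs that were not members, Nthl1/Tsc2 had start sites 52 bases apart in a region with a peak in 13 samples only. Ppat/Paics, Col4a1/Col4a2, Etfdh/Ppid and Tk1/Afmid had no annotated start sites head to head within 1000 bases, and the Ppat/Paics region was also too wide, at 6947 bases.

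Bidirectional promoters carried more signal than single-gene promoters in every sample. The scaled signal is the summit signal of the strongest peak in the region divided by the median of that sample over all 42427 regions with a peak in all 16 samples, so 1 stands for the median shared region of a sample. The median member had a scaled signal of 1.88 in the B6 male to 3.62 in the 129 female, with a median of 2.39 over the samples. The median single-gene promoter had 1.52 to 2.51, and regions with no protein-coding start site had 0.764 to 0.880. In each sample the member median lay above the single-gene median, by 0.30 to 0.53 on the log2 scale (median 0.36, SD 0.07, n = 16). The lead was 0.20 when only regions 1 to 2 kb wide were compared, and 0.28 with the mean signal of the peak. Among all shared regions, 72.5% of members were in the upper tertile of mean signal, against 62.2% of single-gene promoters and 22.4% of regions with no protein-coding start site. No p is given, since both promoter sets were selected on having a peak in every sample.

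**Figure D3:**
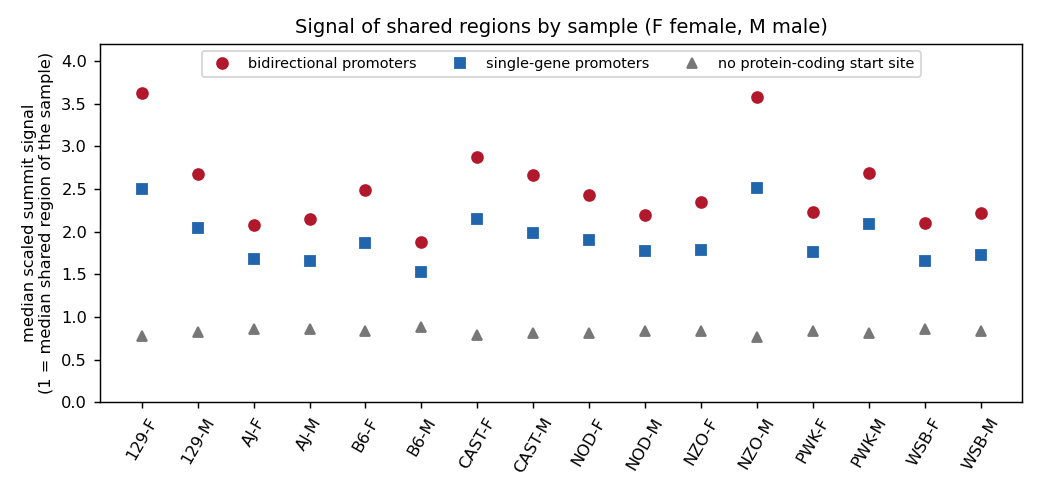
Median scaled summit signal (y axis, 1 is the median shared region of the sample) of bidirectional promoters (red circles), single-gene promoters (blue squares) and shared regions with no protein-coding start site (grey triangles) in each of the 16 samples (x axis). The red circle is above the blue square in all 16 samples, and the 129 female (3.62) and the NZO male (3.58) are highest.

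Both promoter sets were high in the same samples. In 129 the member median was 3.62 in the female and 2.68 in the male. In NZO it was 2.35 in the female and 3.58 in the male. The other 12 samples lay between 1.88 and 2.88. The same 2 samples, the 129 female and the NZO male, had the highest single-gene medians (2.50 and 2.51). They also had the highest duct and vessel marker sums given above, while their islet endocrine sums lay apart, at 23.2 and 16.6. The part of these markers in the result was not tested. In bulk islets a change in the mix of cells and a change in accessibility per cell cannot be told apart. The typical difference between the sexes of a strain at a member, as the median absolute log2 difference, was 0.13 in WSB, 0.16 in AJ, 0.16 in NOD, 0.17 in CAST, 0.32 in PWK, 0.33 in B6, 0.42 in 129 and 0.57 in NZO.

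Across the members the mean scaled signal ran from 0.487 to 19.1. The 6 highest were Aasdhppt/Kbtbd3 (19.1 ± 4.33, SD over n = 16 samples), Etfdh/4930579G24Rik (18.4 ± 4.12), Zfp277/Dock4 (18.3 ± 4.59), Txndc16/Gpr137c (17.8 ± 4.86), Pdcd10/Serpini1 (17.6 ± 3.79) and Atp7b/Alg11 (15.6 ± 3.92). Aasdhppt activates acyl carrier proteins, Etfdh passes electrons from fatty acid oxidation to ubiquinone, and Atp7b is a copper transporter. By limma, described below, 5 of the 6 were called for strain, against 34.9% of all shared regions and 11.8% of members in the upper tertile of signal. All 6 missed the threshold when centred on single-gene promoters, with adjusted p of 0.0565 to 0.0882, and with the mean signal, with 0.083 to 0.525, and each was called in 8 to 18 of 33 alternative fits. All 6 were highest in the AJ male and lowest in the CAST female. At Pdcd10/Serpini1, for example, the signal was 10.9 in the CAST female, 18.1 at the median and 24.2 in the AJ male. The spread of signal itself differed in these samples. The 95th percentile of scaled signal over all shared regions was 5.85 in the AJ male and 4.68 in the CAST female, in a range of 4.59 to 5.85.

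The 6 lowest had means of 0.487 to 0.563 and included Ngef/Neu2 (0.488 ± 0.255), Nkapd1/Pih1d2 (0.508 ± 0.263), Poll/Gm17018 (0.511 ± 0.291), 9430097D07Rik/Pip5kl1 (0.538 ± 0.294) and Cyb5d2/Zzef1 (0.563 ± 0.337). Poll is DNA polymerase lambda. The authors' strain lists of peaks that passed an irreproducible discovery rate of 0.05 between the sexes held these 6 regions in 2 to 5 of 8 strains, whereas 731 of the 805 members (90.8%) were in all 8 lists, as were 83.5% of single-gene promoters. The share of members in a strain's list was lowest in AJ, at 92.5%, and ran from 97.8% to 100% in the other strains.

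Level varied with sequence and width. Across the 805 members, log2 mean signal had a Pearson correlation of -0.42 with the GC content of the region and 0.39 with its width, and 0.08 with the distance between the start sites. These are given as a description, since members share the samples, and since a wider region has more chance to hold a high peak.

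Strain was tested with limma, with sex in the model, on log2(summit signal + 1) centred on each sample's median, over all 42427 shared regions. With Benjamini-Hochberg adjusted p below 0.05, 113 of the 805 members (14%) were called, against 34.9% of all shared regions, 22.2% of single-gene promoters and 40.1% of regions with no protein-coding start site. The shares differed with signal. In the upper tertile of mean signal 69 of 584 members (11.8%) were called, against 18.3% of single-gene promoters and 28.0% of all shared regions in that tertile. In the middle tertile the shares were 17.4%, 26.8% and 39.7%. In the lower tertile, which held few members, 38.5% of them (10 of 26) were called, above 33.4% of single-gene promoters and 37.1% of all shared regions. The rule required a peak in every sample, which leaves out promoters that lost theirs in any strain. The SD of the 8 strain means, on the log2 scale, had a median of 0.31 in members, 0.32 in single-gene promoters and 0.40 in regions with no protein-coding start site. Between the highest and the lowest strain mean, called members differed by a median of 2.63-fold and all members by 1.91-fold.

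The count of called members moved with single samples. It was 423 without the NZO female and 225 without the NZO male, 75 without the 129 female, 73 without the B6 male, 52 and 51 without the AJ female and male, 45 without either NOD sample, 38 and 41 without the WSB female and male, and 31 and 34 without the CAST female and male. In all of these fits but the first, the share of members called was below that of all shared regions and of single-gene promoters. Without the NZO female 52.5% of members and 51.9% of single-gene promoters were called, against 59.3% of all shared regions. When values were centred on the median of single-gene promoters, 50 members were called, 45 of them among the 113. The share was then 6.21% of members, against 13.9% of single-gene promoters and 22.5% of all shared regions. With no centring it was 559 members (69.4%), and the order turned, since 68.0% of single-gene promoters and 62.3% of all shared regions were then called.

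The calls were not spread evenly over chromosomes. On chromosome 19, 17 of 30 members (56.7%) were called, on chromosome 18, 6 of 17 (35.3%), and on chromosome 11, 15 of 45 (33.3%). On the other chromosomes it was 75 of 713 (10.5%). The same chromosomes stood out among all shared regions, of which 70.1%, 48.6% and 44.2% were called on chromosomes 19, 18 and 11, against 29.2% to 39.1% on the others. There the median signal of the chromosome differed between strains. The median log2 signal of the shared regions of chromosome 19, relative to the sample's median over all chromosomes, was -0.53 in B6, -0.27 in 129, 0.00 in PWK, 0.22 in NOD, 0.36 in AJ, 0.36 in NZO, 0.39 in CAST and 0.47 in WSB. On chromosome 19 the sexes of a strain had like values in WSB (0.47 and 0.47 in the female and male), NOD (0.22 and 0.22) and AJ (0.35 and 0.36), and lay farther apart in B6 (-0.43 and -0.64) and NZO (0.23 and 0.50). On chromosome 11 they lay farther apart in several strains, at 0.09 and 0.68 in the NZO female and male, 0.18 and -0.16 in B6 and 0.40 and 0.10 in 129, so the highest strain value there, that of NZO, rested on the male. The range of the 8 strain values was 1.00 on chromosome 19, 0.79 on chromosome 11 and 0.53 on chromosome 18, against 0.07 to 0.26 on the others. With each sample centred within each chromosome, 82 members (10.2%) were called, 71 of them among the 113, against 31.7% of all shared regions. On chromosomes 19, 18 and 11 it was 5 of 30, 2 of 17 and 6 of 45 members.

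**Figure D4:**
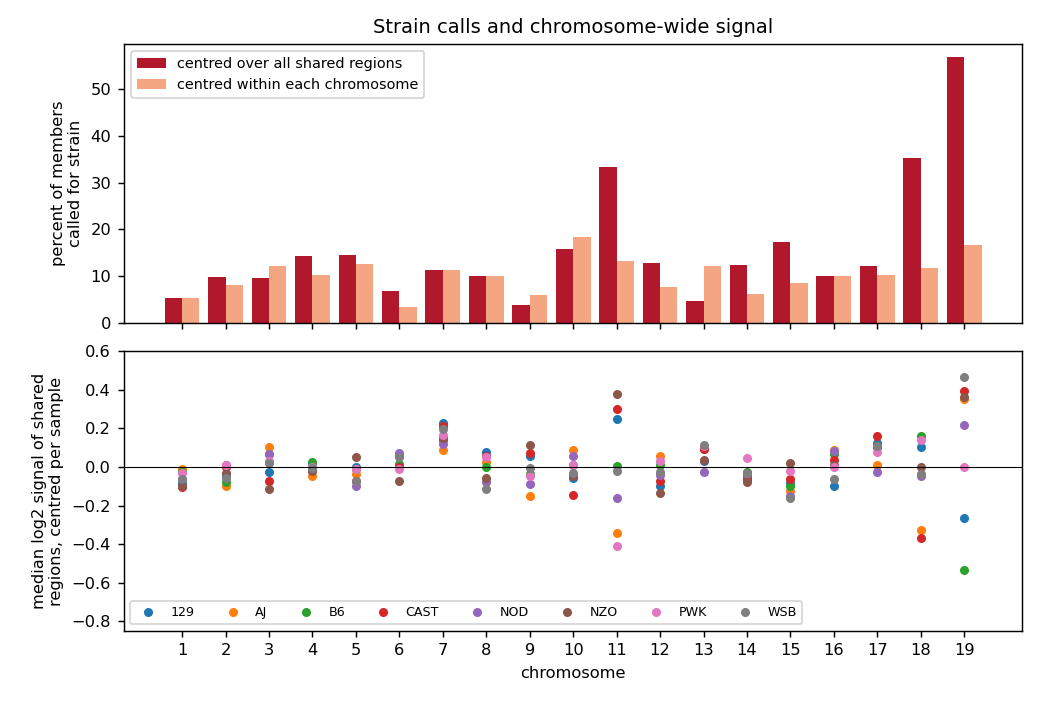
Upper panel, percent of members called for strain (limma, adjusted p below 0.05) on each chromosome, with values centred over all shared regions (red) or within each chromosome (light red). Lower panel, median log2 signal of all shared regions of a chromosome, centred per sample and averaged over both sexes, with 1 point per strain. On chromosomes 11, 18 and 19 the strain medians spread by 0.79, 0.53 and 1.00, and the calls there fell from 15, 6 and 17 members to 6, 2 and 5 once each chromosome was centred.

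The 12 members with the smallest adjusted p held 5 of chromosome 19 and 2 of chromosome 11, and 10 of the 12 were also called after centring within chromosomes. The smallest belonged to H2-T22/Gm6034 (chr17:36041782-36043371), in the major histocompatibility complex. Its scaled signal was 0.855 and 0.906 in the PWK female and male, and 2.24 to 4.28 in the other 14 samples (limma adjusted p = 0.001, and 0.000631 after centring within chromosomes). Without both PWK samples the call was lost, with an adjusted p of 0.406. H2-T22 is a nonclassical class I gene of a family with near-identical copies, and reads of all strains were aligned to the B6 reference, so that reads from diverged copies may be missing or misplaced here. Whether this was so was not tested.

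At Atp5h/Kctd2 (chr11:115419459-115420591) the fold between strain means was largest among the 12, at 5.92. Atp5h encodes a subunit of ATP synthase. Its signal was 0.262 and 0.327 in the AJ female and male and 0.360 and 0.256 in those of NOD, while it was 1.64 and 1.06 in 129, 1.36 and 0.919 in CAST and 0.938 and 2.55 in NZO. B6 (0.786 and 0.554), PWK (0.726 and 0.500) and WSB (0.566 and 0.625) were intermediate. The adjusted p was 0.00424, and 0.00354 after centring within chromosomes.

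Ppp1r3d/Fam217b (chr2:178412520-178415917) was high in PWK, at 1.97 and 2.69 in the female and male, and in NOD, at 1.67 and 1.94. Ppp1r3d targets protein phosphatase 1 to glycogen. AJ (0.60 and 0.582), B6 (0.655 and 0.614) and NZO (0.790 and 0.836) were low, 129 had 1.00 and 0.493, CAST 1.56 and 1.10, and WSB 1.26 and 1.47 (adjusted p = 0.00236, and 0.00283 within chromosomes). The highest peak of this region lay 249.5 bases from the midpoint of the pair, on the Fam217b side.

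CAST was lowest at 3 of the 12. At Vta1/Nmbr (chr10:14703600-14705924), with the receptor of neuromedin B, the CAST samples had 3.37 and 3.15, against 4.40 to 10.3 in the other 14 samples (adjusted p = 0.00271, and 0.00691 within chromosomes). At Mphosph10/Mcee (chr7:64391409-64393581), with a component of the U3 snoRNP and methylmalonyl-CoA epimerase, they had 3.84 and 3.71, against 6.12 to 12.4 (0.00459 and 0.00325). At Galntl6/BC030500 (chr8:58911273-58913565) they had 0.257 and 0.331, against 0.370 to 1.02 (0.00479 and 0.0022), at a summit 971.5 bases from the midpoint of the pair. In each of the 3, both CAST samples lay below all others. Since the 12 were chosen for a small p in these same data, such gaps between strains partly follow from that choice.

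On chromosome 19 the B6 samples were lowest at 4 of the 5 named members. At Tmem138/Cyb561a3 (chr19:10576716-10578046) they had 0.857 and 0.855, against 1.08 to 2.65 elsewhere. The adjusted p was 0.00162, but 0.117 after centring within chromosomes. At Nudt22/Trpt1 (chr19:6995282-6996733) they had 0.488 and 0.325, against 0.609 to 1.82, with an adjusted p of 0.00384, and 0.075 within chromosomes. Ighmbp2/Mrpl21 (chr19:3282246-3283501), with a protein of the large mitochondrial ribosomal subunit, had 0.548 and 0.699 in B6 and 1.06 to 2.95 elsewhere. Zfp91/Lpxn (chr19:12793142-12797763) had 5.89 and 6.83 in B6, overlapping 129 (6.67 and 8.77), and 15.1 and 19.9 in AJ. Both stayed just under the threshold within chromosomes, at 0.0493 and 0.0433. At Ifit1bl2/Ifit1 (chr19:34639804-34642912), a pair of related interferon-induced genes, 129 (1.38 and 1.49) and B6 (1.42 and 1.53) were low and AJ (3.91 and 5.02) was high, with adjusted p of 0.00227 and 0.0441. Ifit1bl2 and Ifit1 are copies of 1 family, so reads could be shared between family members.

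The last of the 12 was 2810408A11Rik/Neurl4 (chr11:69900645-69902375), with 0.185 and 0.291 in AJ against 0.422 to 1.28 in the other 14 samples (adjusted p = 0.00471, and 0.0055 within chromosomes).

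Over 33 alternative fits (other centrings, signal measures, pseudocounts and left-out samples), Atp5h/Kctd2, Ppp1r3d/Fam217b, Ifit1bl2/Ifit1 and Zfp91/Lpxn were called in all 33, with adjusted p of 0.000126 to 0.0171, 0.000546 to 0.0104, 0.0007 to 0.0441 and 0.00101 to 0.0433. The other 8 were called in 31 or 32. Their adjusted p reached 0.406 at H2-T22/Gm6034, 0.258 at Nudt22/Trpt1, 0.216 at Mphosph10/Mcee, 0.124 at 2810408A11Rik/Neurl4, 0.117 at Tmem138/Cyb561a3, 0.109 at Vta1/Nmbr, 0.0793 at Ighmbp2/Mrpl21 and 0.0576 at Galntl6/BC030500.

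**Figure D5:**
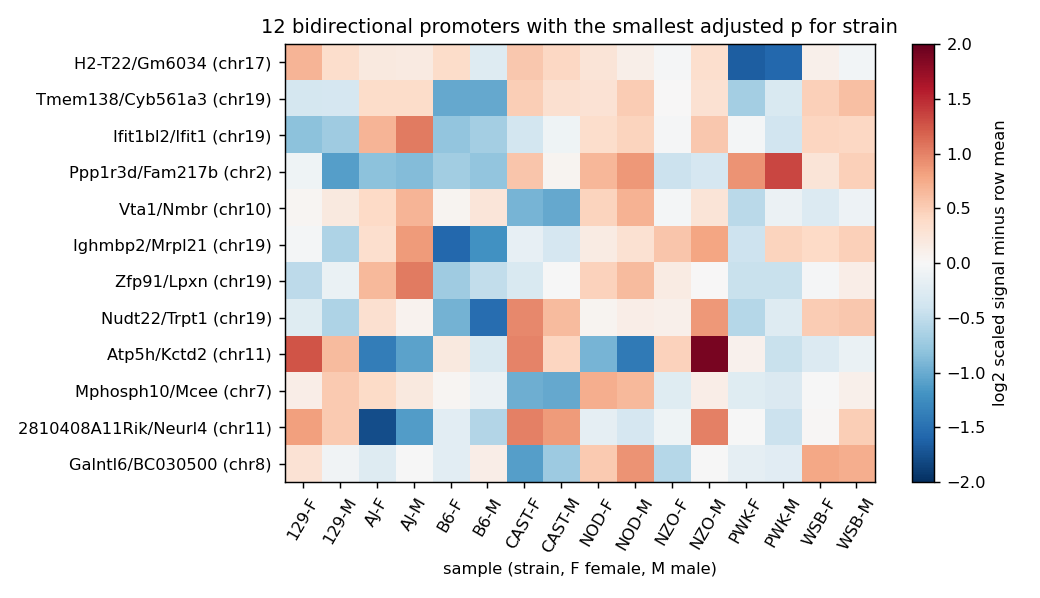
Log2 scaled signal minus the row mean in the 16 samples (columns) for the 12 members with the smallest adjusted p for strain (rows). The colour scale runs from -2 to 2, and the values from -1.78 to 1.90. PWK is low at H2-T22/Gm6034, CAST at Vta1/Nmbr, Mphosph10/Mcee and Galntl6/BC030500, and B6 at 4 of the 5 members on chromosome 19.

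Among the 113 called members NZO had the highest strain mean in 33, 129 in 26, AJ in 21 and CAST in 15, and AJ had the lowest in 43, B6 in 21, CAST in 20 and WSB in 13. How far this followed the sample-wide level of promoters was not tested. Over all 805 members, called or not, 129 was highest in 332 and NZO in 216, and AJ was lowest in 256 and WSB in 222. Relative to single-gene promoters, among the 50 members then called, 129 was highest in 0 and NZO in 6, and AJ was highest in 22 and lowest in 5. Over all 805 members AJ was then highest in 200 and 129 in 136, so the order of strains depended on the centring.

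The members that varied least between strains were Zfp942/Zfp943 (SD of strain means 0.11 on the log2 scale, scaled signal 4.52 to 6.35), Cept1/Dram2 (0.12, 4.69 to 6.60), Mboat7/Tsen34 (0.12, 4.30 to 5.80), Lsr/Fam187b (0.12, 3.29 to 5.23) and Mbd4/Ift122 (0.12, 2.43 to 5.13). None passed the test, with limma adjusted p of 0.746 to 0.948, which follows from their choice by a small spread in these same data. Cept1 makes choline and ethanolamine phospholipids, and Tsen34 is a subunit of the tRNA splicing endonuclease. The 5 largest SDs included Atp5h/Kctd2 (0.88), 2810408A11Rik/Neurl4 (0.73), Cyb5d2/Zzef1 (0.73) and Ppp1r3d/Fam217b (0.73).

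Of the 15 textbook pairs, 3 were called for strain, against 14% of all members and 34.9% of all shared regions. Pdcd10/Serpini1 (adjusted p = 0.0341) is described above. Hars/Hars2, the cytosolic and mitochondrial histidyl-tRNA synthetases, on chromosome 18, had 1.06 and 1.18 in AJ and 3.53 and 2.61 in 129 (adjusted p = 0.0181). Brca1/Nbr1, on chromosome 11, had 3.43 and 3.04 in CAST and 1.15 and 0.719 in PWK, with 4.16 in the NZO male against 1.54 in the NZO female (adjusted p = 0.0234). After centring within chromosomes none of the 3 passed, at 0.0755, 0.0806 and 0.0797, in ranges over the alternative fits of 0.0129 to 0.187, 0.00587 to 0.116 and 0.000546 to 0.108. The other 12 had adjusted p of 0.0523 to 0.567. At Hspd1/Hspe1 the samples ran from 3.81 in the WSB female to 6.41 in the PWK male, with a median of 4.94 (0.348). At Psmb9/Tap1 (chr17:34186809-34188402), an immunoproteasome subunit and a peptide transporter of antigen presentation, they ran from 1.08 in the B6 male to 2.81 in the CAST female, with a median of 1.60 (0.301).

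The pairs held many genes of housekeeping complexes. Of the 10116 protein-coding genes with a start site in a shared region under 5 kb, 16.1% were in a pair. The share was 36.8% for mitochondrial ribosomal proteins (21 of 57), 36.1% for DNA repair genes (30 of 83), 33.3% for RNA polymerase subunits (8 of 24), 31.9% for the respiratory chain and ATP synthase (23 of 72), 30.9% for chaperonins and heat shock proteins (17 of 55), 26.5% for spliceosome components (13 of 49) and 25.7% for aminoacyl-tRNA synthetases (9 of 35). It was 41.2% for replication-dependent histones (21 of 51), whose genes lie in clusters and whose near-identical copies can share reads. It was nearer to that of all genes for proteasome subunits (6 of 31), DNA replication and cell cycle genes (18 of 93) and cytosolic ribosomal proteins (11 of 64). Of 12 islet hormone and identity genes with such a start site, 0 were in a pair. These counts carry no test, since the lists were drawn up for head-to-head pairs.

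Called for strain were 5 of 20 members with a mitochondrial ribosomal protein, 5 of 30 with a DNA repair gene, 4 of 23 of the respiratory chain and ATP synthase, 2 of 8 with an aminoacyl-tRNA synthetase, and 1 each of 6 proteasome, 10 histone, 15 chaperonin and heat shock and 18 replication and cell cycle members. None of 11 cytosolic ribosomal, 8 RNA polymerase and 13 spliceosome members passed the test. Over all members it was 14%, against 22.2% of single-gene promoters and 34.9% of all shared regions. With 6 to 30 members in each list, these counts cannot rank the lists. Examples of called members are Ighmbp2/Mrpl21, Mrpl54/Apba3, Tmem63b/Mrpl14 and Ska3/Mrpl57 for mitochondrial ribosomal proteins, and Brca1/Nbr1, Mkks/Slx4ip, Zfyve26/Rad51b and Slx1b/Bola2 for DNA repair. Levels also differed between lists. The median of the mean scaled signal was 0.988 in members with a cytosolic ribosomal protein and 1.65 with a mitochondrial one, 3.44 with a DNA repair gene, 3.60 with a replication or cell cycle gene, 3.81 with a chaperonin or heat shock gene and 4.45 in the histone pairs, against 2.57 over all members.

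Wild-derived and classical strains were compared on the 8 strain means. No member passed the test, as 0 of 805 had a limma adjusted p below 0.05 against 0.033% of all shared regions, and 21 had an unadjusted p below 0.05. The smallest adjusted p was 0.176, at Gpc2/Stag3, where wild-derived strains were lower by -0.99 ± 0.25 (SE) on the log2 scale. With 3 against 5 strain means, a difference of this size did not pass the test over all regions. The median difference over members was -0.06, against -0.05 over all shared regions.

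Between the sexes, with strain in the model, no member passed either, with 0 called by limma against 0.00943% of all shared regions and 3 at an unadjusted p below 0.05. The largest difference among the members, at Bola1/Hist2h2ab, was 0.33 ± 0.15 (SE) on the log2 scale, higher in females, with an adjusted p of 0.999. The median absolute difference between the sexes was 0.08, and 392 of 805 members were higher in females. Within strains the median female minus male difference at members was 0.40 in 129 and -0.57 in NZO, on the log2 scale. Without both NZO samples, 49 of 805 members had an unadjusted limma p below 0.05 for sex, with 0 called. A count of that size is near what chance alone gives, so it is no sign of a sex difference. With 1 sample of each sex per strain, the absence of calls does not show that the sexes are alike either. The test of whether the sex difference itself differed between wild-derived and classical strains called 0 members, against 0% of all shared regions, with 0 at an unadjusted p below 0.05.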

How the data were processed

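Islets of 16 samples were profiled by ATAC-seq. The authors trimmed reads with cutadapt 2.0, aligned them to mm10 with Bowtie2 2.3.4.1, removed unmapped reads with SAMtools and duplicate reads with Picard 2.9.2, and used MOSAiCS for peak calls in each sample (false discovery rate 0.05). The deposited values used are the summit signal and mean signal of each peak, which are not scaled to depth. The strain lists deposited by the authors hold the −log10 of the global irreproducible discovery rate between the sexes. No read totals were used, so intervals on shares cover counting error only. All strains were aligned to a B6 reference, so sequence differences can lower signal elsewhere, which was not tested here. The paper also aligned reads to individualized genomes. It reported differences no larger than small changes of alignment settings would give, and kept the reference alignments.

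Overlapping peaks were merged over samples. Start sites came from protein-coding transcripts of GENCODE M21 on GRCm38.p6, which matches mm10. The strongest peak per region and sample was taken as log2(summit signal + 1) and centred on the sample's median over the 42427 shared regions. Strain and sex were tested with limma 3.58.1 in R 4.3.3, and wild-derived against classical strains with limma on the 8 strain means, with Benjamini-Hochberg adjustment over all shared regions and a threshold of 0.05. The scripts were tested on simulated data. Other steps used Python 3.11.15. The study's own count test needs read counts and was not used here.

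Members and gene lists were chosen with earlier results of these data known. Named members were the textbook pairs, the 12 smallest adjusted p for strain, the members of smallest p for class and sex, the 6 highest and 6 lowest in signal, the 5 largest and 5 smallest SDs of strain means, and those nearest the limits of the rule. Alternatives were other start site, distance and width rules, centrings, signal measures and pseudocounts, and leaving out samples or strains. Centring on single-gene promoters and within chromosomes was chosen after seeing the data, as were the marker lists. X-linked pairs were not members. Some named members are not reported here.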

Additional observations from a re-analysis of the deposited data

Results flagged for a closer look

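The share of members with the summit between the paired start sites stood apart in 1 female sample. It was 53.7% in the 129 female, against 47.7% to 49.3% in the other 7 females. The gap to the next female was 0.729 of the range of the 8 females, above the critical value of Dixon's test for 8 samples. Of 16 sets of samples examined in this way 1 stood out, and chance gives about 1 in 20. The 129 male had 51.4%, the highest of the males. The 129 female also had the highest median signal of members, 3.62 on the scaled signal.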

How the results depend on the processing

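The number of members was 555 with gene-record start sites (541 of them among the 805), 745 with a limit of 500 bases, 770 with the 60000 strongest peaks per sample, 844 with no limit on width and 917 with overlapping 5′ ends included. The 113 members called for strain became 559 with no centring, 190 with a pseudocount of 10, 68 with the peak nearest the region centre, 71 with regions that had a peak in at least 12 samples and 50 when centred on single-gene promoters. In that order the shares of members were 69.4%, 23.6%, 8.45%, 8.82% and 6.21%. Of all regions tested, 62.3%, 40.9%, 24.8%, 29.4% and 22.5% were called. The count ran from 31 to 423 with single samples left out, where the lone sample of that strain is assumed to vary like the others. Without both samples of a strain it was 46 for AJ, 31 for CAST, 61 for NOD, 276 for NZO and 57 for WSB. In each of these the share of members was below that of all shared regions, at 34.3% against 48.8% without NZO. The other fits gave 78 to 163, among them 80 with the mean signal, of which 40 were among the 113. Of the 113, 6 were called in all 33 alternatives and 11 in all 9 that keep every sample. The cause was not tested. For strain class, sex and their interaction 0 members were called by limma in each of 33 alternatives, as in the fits above (21, 3 and 0 at an unadjusted p below 0.05). The unadjusted counts moved, to 34, 49 and 43 without both NZO samples, each near what chance alone gives among 805 members. The lead in level of 0.36 became 0.28 with the mean signal and 0.20 in regions 1 to 2 kb wide. The share of summits between the start sites became 72.9% with outermost start sites and 29.9% with peak centres. With windows centred between the start sites the GC box share was 67.3% and the TATA box share 4.47%, and the other 9 motifs kept within their intervals. The labels carry no replicate numbers, so no fit with a replicate block was made, and the sex test compares the sexes within strains. Each strain has 2 samples of different sex, and the signal is not scaled to depth, which limits all tests of single members.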

Other observations

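Outside the rule, 24 regions on the X chromosome met its other conditions. For sex 0 were called by limma, with 0 at an unadjusted p below 0.05, and 1 was called for strain, Nup62cl/Pih1h3b (adjusted p = 0.00939). Members more often held a single peak throughout, as 63.5% had 1 peak in all 16 samples against 56.3% of single-gene promoters. Of the 10 members with a replication-dependent histone gene, 9 paired 2 histone genes.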
